A study of Mus musculus with 4 samples.

Results

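NRF2, the transcription factor encoded by Nfe2l2, and 9 genes known as its targets were followed through 4 mouse lung libraries. The 10 genes were picked by name from the 41079 genes of the count table: Nfe2l2, Slc7a11, Gclc, Gclm, Gpx2, Txnrd1, Srxn1, Hmox1, Cbr3 and Osgin1. They were selected with measured values of these libraries known, among them the high ratio of Slc7a11 in normal Rab44-KO lungs, so all values below are descriptions. Rab44 is a large Rab GTPase. A lone library was sequenced from each of 4 kinds of lung, and values for all 4 are always given in the order normal WT, then normal Rab44-KO, then OVA-induced WT, and last OVA-induced Rab44-KO. According to the labels the normal WT and normal Rab44-KO mice had no treatment. The OVA-induced mice of both genotypes were sensitized with OVA (ovalbumin) and alum on days 0, 7 and 14, given OVA into the nose from day 17 to day 20, and sampled on day 21. Per the study's methods all mice were females of 8 to 14 weeks, the knockout was made by CRISPR/Cas9 editing on a C57BL/6 background, and the WT mice were littermates. How many mice stand behind a library is not given in the sources used here.

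In resting cells NRF2 is bound by KEAP1, which directs it to degradation. Oxidants and electrophiles modify KEAP1, NRF2 then accumulates, pairs with small MAF proteins and binds antioxidant response elements in the DNA near its target genes. In the airways this program is known for supplying glutathione, reducing peroxides and clearing reactive chemicals such as those in smoke.

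Levels are counts per 1000000 (CPM) after TMM scaling, and ratios are log2 ratios of CPM with a 95% counting interval in parentheses. These intervals cover counting error only. Since each group was a lone library, nothing here has a replicate check, and each comparison sets a library against another library rather than a condition against a condition. Genes beyond 2-fold, a log2 ratio of 1, were counted as over 2-fold higher or lower, and the shares of all genes past the same line stand beside these counts. The 4 comparisons share libraries, so their values are not independent. In whole lung, fewer cells of a type and less RNA per cell cannot be told apart.

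Total counts ran from 18112901 to 19910236, and 24316 to 25003 genes were detected per library. Rab44, the edited gene, had 251, 1, 810 and 0 counts, as low in both Rab44-KO libraries as their labels say. Sftpc, Scgb1a1 and Ager, which mark alveolar type 2, club and alveolar type 1 cells, had at least 19434 counts each in every library. The libraries went against the stated sex. The Y-linked genes Ddx3y, Kdm5d, Uty and Eif2s3y were counted in all 4, from 363 to 2216 counts, while Xist, the RNA of the inactive X, had 41, 40, 538 and 72 counts. No result could be taken without these libraries, because every group is a lone library.

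Promoter windows were available from RefSeq (GRCm38.p6) for 8 of the 10 genes, as 10 windows of 300 bases that span 250 bases before to 50 bases after a transcript start. Gclc and Hmox1 had no entry. The windows were searched on both strands for 3 motifs. These were the antioxidant response element core TGACNNNGC, the element TGATGNAA that C/EBP and ATF factors bind as a pair, and the GCGTG core of the element bound by the aryl hydrocarbon receptor. Slc7a11 and Gclm, the genes shown here, are both on chromosome 3 and hold different motifs. The Slc7a11 window (chr3:50443564-50443863, minus strand) has matches to TGATGNAA at -66 and -47 relative to the start, in capitals here, and none to the antioxidant response element core. The Gclm window (chr3:122245307-122245606, plus strand) has a match to that core on the reverse strand at -134, in capitals here.
Slc7a11: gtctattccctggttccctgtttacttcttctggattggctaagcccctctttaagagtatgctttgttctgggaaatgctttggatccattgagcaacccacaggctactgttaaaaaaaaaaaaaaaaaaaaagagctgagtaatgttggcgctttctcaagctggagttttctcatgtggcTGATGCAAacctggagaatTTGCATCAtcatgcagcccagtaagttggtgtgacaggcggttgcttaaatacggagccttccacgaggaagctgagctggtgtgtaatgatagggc
Gclm: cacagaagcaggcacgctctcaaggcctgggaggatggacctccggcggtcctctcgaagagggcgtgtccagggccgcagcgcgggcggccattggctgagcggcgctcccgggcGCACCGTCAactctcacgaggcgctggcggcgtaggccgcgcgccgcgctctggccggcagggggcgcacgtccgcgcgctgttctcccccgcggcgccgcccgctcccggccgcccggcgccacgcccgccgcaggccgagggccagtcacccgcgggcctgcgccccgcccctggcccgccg
The antioxidant response element core was in the windows of Gclm, Nfe2l2, Srxn1 and Txnrd1, and in 12.4% of all 32851 windows. TGATGNAA was found in the Slc7a11 window alone among these genes and in 3.97% of all windows, and 0.0700% of all windows held 2 or more matches. GCGTG was in windows of Gclm, Osgin1, Srxn1 and Txnrd1 and in 32.4% of all windows. A match says only that these letters occur in the window.

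Nfe2l2 itself (chromosome 2, 75675513 to 75704641, minus strand, GENCODE M21 on GRCm38) hardly varied. It had 2993, 3051, 2822 and 2645 counts, or 156, 167, 146 and 136 CPM. Normal Rab44-KO was the highest library and OVA-induced Rab44-KO the lowest, a log2 ratio of -0.30 for OVA-induced over normal. The log2 ratio of Rab44-KO over WT was 0.10 (0.03 to 0.17) in normal and -0.10 (-0.18 to -0.03) in OVA-induced lungs. The sign in OVA-induced lungs turned to 0.22 on the deposited TPM, where the median of all genes moved up by 0.32. NRF2 is controlled largely through its protein, which RNA counts do not show.

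Slc7a11 (chromosome 3, 49892526 to 50443614, minus strand) encodes xCT, the light chain of the transporter that takes up cystine for glutathione in exchange for glutamate. It varied more between the libraries than any of the other 9 genes. The counts were 43, 182, 275 and 123, which is 2.24 (1.62 to 3.02), 9.97 (8.58 to 11.5), 14.2 (12.6 to 16.0) and 6.31 (5.24 to 7.53) CPM. Normal WT was the lowest and OVA-induced WT the highest, and no 2 of these counting intervals overlapped. Rab44-KO was thus 4.44-fold above WT in normal lungs, a log2 ratio of 2.15 (1.67 to 2.67), and 2.25-fold below WT in OVA-induced lungs, a log2 ratio of -1.17 (-1.49 to -0.86). On TPM the OVA-induced ratio was -0.81, short of 2-fold. OVA-induced over normal was 2.66 (2.20 to 3.16) in WT and -0.66 (-1.0 to -0.32) in Rab44-KO lungs.

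**Figure D1:**
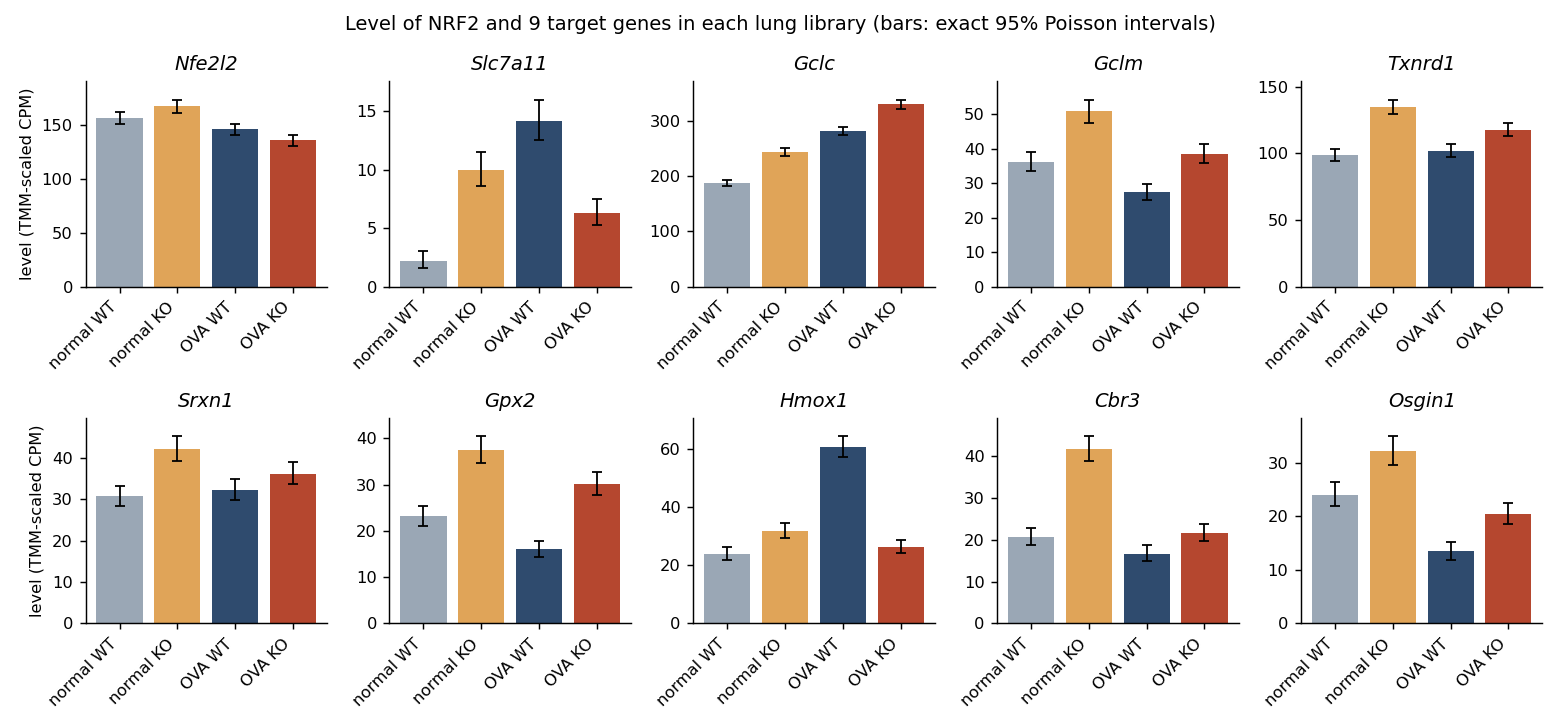
Level of each gene (vertical axis, TMM-scaled CPM, from 0, with its own scale per gene) in the 4 lung libraries; bars are single libraries and whiskers exact 95% Poisson intervals. Slc7a11 runs from 2.24 CPM in normal WT to 14.2 in OVA-induced WT, while Nfe2l2 stays between 136 and 167 CPM.

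Per length, Slc7a11 was the scarcest of the 10 in every library, at 0.568, 2.57, 3.19 and 1.78 TPM. The other 9 genes lay between 12.3 TPM (Osgin1, OVA-induced WT) and 235 TPM (Gclc, OVA-induced Rab44-KO). In normal WT lungs the order from the top was Gclc at 120 TPM, Nfe2l2 at 97.1, Txnrd1 at 58.5, Gpx2 at 51.5, Cbr3 at 42.0, Gclm at 41.6, Hmox1 at 36.1, Osgin1 at 24.9 and Srxn1 at 21.4. Of these neighbours Cbr3 and Gclm were closer than the counting error of either. Slc3a2, which encodes the heavy chain that xCT needs to reach the cell surface, was at 60.5, 58.5, 54.0 and 77.5 TPM. There were 107, 22.7, 16.9 and 43.6 Slc3a2 transcripts per Slc7a11 transcript by TPM, so the scarcer chain by RNA was xCT in each library. Slc3a2 is also the partner of other transporters.

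Gclc (chromosome 9, 77754535 to 77794485) encodes the catalytic subunit of glutamate-cysteine ligase, the rate-limiting enzyme of glutathione synthesis. It had 3602, 4451, 5452 and 6433 counts, or 188, 244, 282 and 330 CPM. It was the only one of the 10 that was higher in the OVA-induced than the normal library in both genotypes, by 0.59 (0.52 to 0.65) in WT and 0.44 (0.38 to 0.49) in Rab44-KO lungs. Rab44-KO over WT was 0.38 (0.31 to 0.44) in normal and 0.23 (0.18 to 0.28) in OVA-induced lungs.

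Gclm (chromosome 3, 122245557 to 122270732), the modifier subunit of the same ligase, had 696, 927, 529 and 749 counts, or 36.2, 50.8, 27.3 and 38.4 CPM. Both Rab44-KO libraries were above their WT library, by 0.49 (0.34 to 0.63) in normal and 0.49 (0.33 to 0.66) in OVA-induced lungs. Both OVA-induced libraries were below their normal library, by log2 ratios of -0.41 and -0.40, opposite to Gclc. Exons of Gclm overlap those of the antisense gene Gm17494 and of the pseudogene Gm6061, and 1.65% of its 150-base windows recur in Gm10123, Gm6061 or Ppia. How the counting treated strand is not given in the sources used here, so its counts are less certain. None of the other 9 genes shared a window of this length.

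Gpx2 (chromosome 12, 76792333 to 76795554, minus strand) encodes a glutathione peroxidase of epithelial cells. It had 444, 684, 310 and 589 counts, or 23.1, 37.5, 16.0 and 30.2 CPM. Both Rab44-KO libraries exceeded both WT libraries. Rab44-KO over WT was 0.70 (0.52 to 0.87) in normal and 0.92 (0.72 to 1.12) in OVA-induced lungs. The latter passed 2-fold on TPM, at 1.24, and after removal of the trend with gene length, at 1.39.

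Txnrd1 (chromosome 10, 82833951 to 82897712) encodes the cytosolic thioredoxin reductase, which keeps thioredoxin reduced. It had 1899, 2459, 1977 and 2296 counts, or 98.9, 135, 102 and 118 CPM. Srxn1 (chromosome 2, 152105516 to 152111376), encoding sulfiredoxin, which restores overoxidized peroxiredoxins, had 589, 767, 623 and 705 counts, or 30.7, 42.0, 32.2 and 36.2 CPM. These genes of the thioredoxin system had like profiles, with normal Rab44-KO highest, OVA-induced Rab44-KO next and both WT libraries lowest. Rab44-KO over WT was 0.45 for each in normal lungs, and 0.21 (0.12 to 0.29) for Txnrd1 and 0.17 (0.01 to 0.33) for Srxn1 in OVA-induced lungs. On TPM the OVA-induced ratios were 0.53 and 0.49, where the median of all genes was 0.29. For OVA-induced over normal in WT, the ratios of 0.05 (-0.05 to 0.14) and 0.07 (-0.10 to 0.23) had intervals that include 0.

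Hmox1 (chromosome 8, 75093621 to 75100589) encodes heme oxygenase-1, which breaks down heme and is abundant in macrophages that clear red cells. It had 460, 581, 1177 and 513 counts, or 24.0, 31.8, 60.8 and 26.3 CPM. OVA-induced WT stood far above the other libraries, which lay within 24.0 and 31.8 CPM. Rab44-KO over WT was 0.41 (0.23 to 0.59) in normal and -1.21 (-1.36 to -1.06) in OVA-induced lungs, or 2.31-fold lower, and the latter was -0.88 on TPM and -0.85 after removal of the length trend. OVA-induced over normal was 1.34 (1.19 to 1.5) in WT, 1.17 on TPM and 1.18 after removal of that trend, and -0.27 (-0.45 to -0.10) in Rab44-KO lungs.

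Cbr3 (chromosome 16, 93683215 to 93690990) encodes a carbonyl reductase. It had 396, 758, 323 and 421 counts, or 20.6, 41.5, 16.7 and 21.6 CPM, so normal Rab44-KO was the library that stood out. Rab44-KO over WT was 1.01 (0.83 to 1.19) in normal lungs, just past 2-fold, and 0.37 (0.16 to 0.59) in OVA-induced lungs. Osgin1 (chromosome 8, 119434124 to 119446256), a growth inhibitor induced by oxidative stress, had 461, 587, 260 and 398 counts, or 24.0, 32.2, 13.4 and 20.4 CPM. Each Rab44-KO library was above its WT library, by 0.42 (0.24 to 0.60) in normal and 0.60 (0.38 to 0.84) in OVA-induced lungs. Each OVA-induced library was below its normal library, with WT at -0.84 and Rab44-KO at -0.66.

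In normal lungs all 10 genes were higher in the Rab44-KO than the WT library, with a median log2 ratio of 0.45 beside 0.00429 for all genes that reached 10 counts in either library. All 10 had counting intervals above 0, as did 16.7% of the 13166 genes that reached 100 counts in either library, while 18.7% were wholly below 0. Slc7a11 and Cbr3 were over 2-fold higher and none was over 2-fold lower. Of all genes, 2.77% were over 2-fold higher and 2.0% lower with at least 10 counts, and 0.334% and 0.0835% with at least 100 counts. Nothing is read from these shares, because the high ratio of Slc7a11 was known when the genes were chosen. Between Slc7a11 and the other genes the log2 ratios differed by 1.14 (0.63 to 1.65) for Cbr3, the nearest, and by 2.05 (1.57 to 2.54) for Nfe2l2, the farthest. All 9 of these counting intervals lay above 0.

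In OVA-induced lungs the same 10 genes divided. Gpx2, Osgin1, Gclm, Cbr3, Gclc, Txnrd1 and Srxn1 were higher in Rab44-KO, with log2 ratios from 0.17 to 0.92, and Slc7a11, Hmox1 and Nfe2l2 were lower. The median was 0.22, beside -0.02 for all genes. All 7 ratios above 0 and all 3 below had intervals that exclude 0, as had 32.8% of genes above and 41.2% below. On TPM, which put the median of all genes at 0.29, these 7 lay higher, with Gclm at 0.82, Cbr3 at 0.70 and Gclc at 0.56, and after removal of the trend with gene length these 3 were at 0.78, 0.81 and 0.28. On counts none was over 2-fold higher and Slc7a11 and Hmox1 were over 2-fold lower, beside 8.40% of all genes higher and 7.34% lower (3.64% and 4.34% with at least 100 counts). On TPM Gpx2 was over 2-fold higher at 1.24 and none was over 2-fold lower, with Slc7a11 at -0.81 and Hmox1 at -0.88 (13.5% and 4.03% of all genes). Nfe2l2 was at 0.22 there. After removal of the length trend Gpx2 was over 2-fold higher and Slc7a11, but not Hmox1, lower (9.01% and 5.73% of all genes). Slc7a11 and Hmox1 differed by 0.04 (-0.30 to 0.38), while Slc7a11 was below the other 8 by 1.07 (Nfe2l2) to 2.09 (Gpx2) on the log2 scale.

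**Figure D2:**
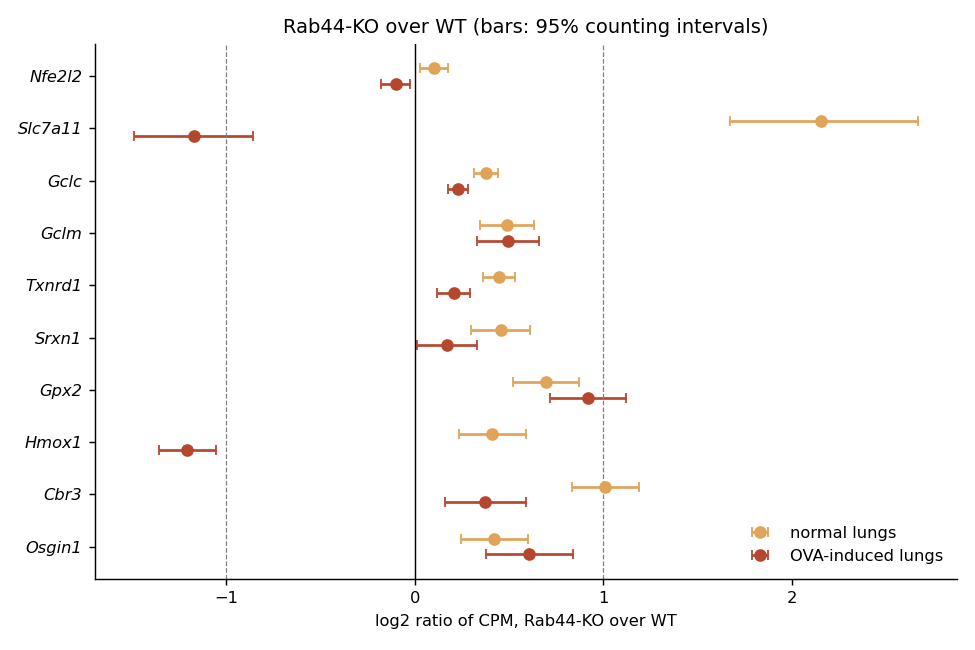
Log2 ratio of CPM (horizontal axis), Rab44-KO over WT, for each gene in normal and OVA-induced lungs; points are ratios of 2 libraries, bars 95% counting intervals and dashed lines 2-fold. In normal lungs all 10 points are right of 0, and in OVA-induced lungs Slc7a11 (-1.17), Hmox1 (-1.21) and Nfe2l2 (-0.10) are left of it.

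The difference between the genotype ratios, OVA-induced minus normal, was -3.32 (-3.89 to -2.75) for Slc7a11 and -1.62 (-1.85 to -1.39) for Hmox1. Cbr3 was at -0.64 (-0.91 to -0.36), but at -0.34 on TPM and -0.27 after removal of the length trend. The other 7 lay between -0.29 (Srxn1) and 0.22 (Gpx2), and the intervals of Gclm, Osgin1 and Gpx2 included 0. On TPM and after removal of the length trend, Gpx2 was at 0.52 and 0.63, Osgin1 at 0.48 and 0.41, and Gclm at 0.30 and 0.27. The differences of Gclc, Txnrd1, Srxn1 and Nfe2l2 were below 0 on counts (-0.15, -0.24, -0.29 and -0.20) and above 0 on TPM (0.15, 0.06, 0.01 and 0.10). These values carry counting error alone and were not tested.

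In WT lungs Slc7a11 and Hmox1 were over 2-fold higher in the OVA-induced library, and none of the 10 was over 2-fold lower. Of all genes, 8.99% were over 2-fold higher and 5.20% lower (5.79% and 1.64% with at least 100 counts). The median of the 10 was -0.03, beside 0.00366 for all genes, with 5 above and 5 below 0. Above 0 were 51.2% of all genes with at least 100 counts. On TPM the median was -0.20, beside -0.16 for all genes, with 3 above and 7 below 0, and Osgin1 was over 2-fold lower at -1.01. In Rab44-KO lungs none passed 2-fold, beside 6.44% of all genes higher and 3.85% lower (2.40% and 1.35% with at least 100 counts). There 9 of the 10 were lower in the OVA-induced library, down to -0.94 (-1.12 to -0.77) for Cbr3, and the median was -0.31, beside -0.00829 for all genes. Of all genes with at least 100 counts, 47.2% were higher in this comparison and the rest lower or equal.

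**Figure D3:**
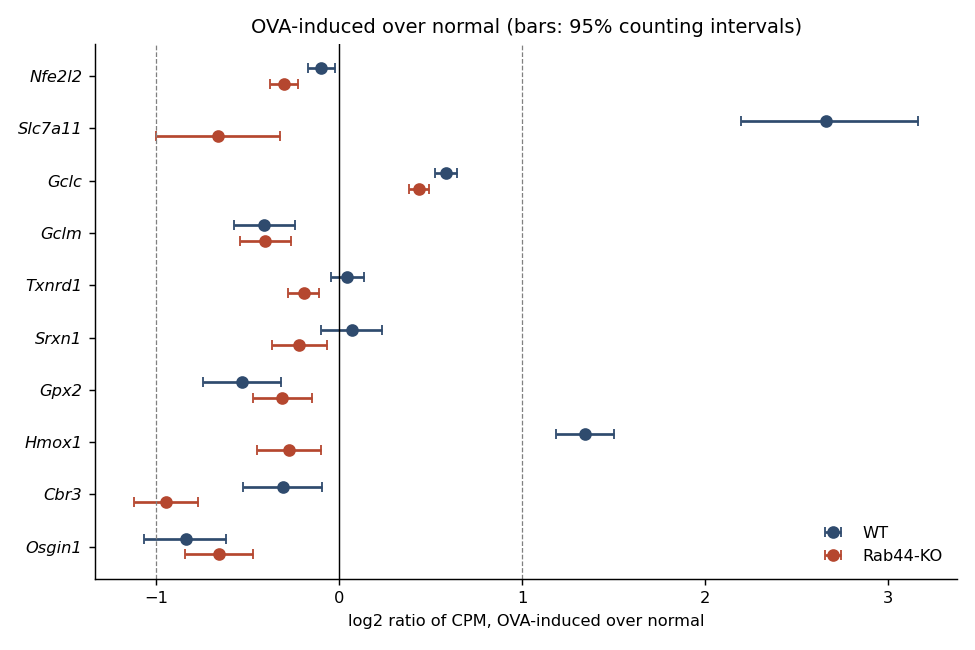
Log2 ratio of CPM (horizontal axis), OVA-induced over normal, for each gene in WT and Rab44-KO lungs; bars are 95% counting intervals and dashed lines 2-fold. Slc7a11 (2.66) and Hmox1 (1.34) lie past 2-fold in WT and at -0.66 and -0.27 in Rab44-KO, and Gclc lies right of 0 in both.

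Markers of other cells and other gene programs moved between these libraries too. The summed level of 12 alveolar macrophage markers was 888, 813, 6033 and 1385 CPM, most of it in OVA-induced WT from Chil3 (101647 counts), which activated macrophages also make. Marco, a scavenger receptor on the same list, had 145, 379, 912 and 76 counts. The summed level of 11 monocyte and interstitial macrophage markers was 336, 352, 807 and 449 CPM, with 5 over 2-fold lower and 10 of 11 lower in OVA-induced Rab44-KO than OVA-induced WT, where 7.34% of all genes were over 2-fold lower. In that comparison 45.1% of all genes with at least 100 counts were higher and the rest lower or equal. None of these macrophage markers was at 0 in any library. OVA-induced WT had the highest sum for both lists, for the alveolar macrophage list mostly through Chil3. It was also the highest library for Slc7a11 and Hmox1. The part of these cells in the results was not tested.

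Sums for other cell types moved as well. The sums for 9 goblet cell markers were 144, 184, 2206 and 135 CPM, for 8 eosinophil markers 37.0, 37.1, 106 and 41.2 CPM, and for 11 neutrophil markers 129, 164, 635 and 799 CPM. Epx and Rnase2a of the eosinophil list and Ly6g, Ngp and Camp of the neutrophil list were at 0 in at least 1 library. The eosinophil markers did not move together. Ear1 had 298, 262, 258 and 436 counts, and at 22.4 CPM made up most of the sum in OVA-induced Rab44-KO. Rnase2a had 0, 1, 524 and 5 counts and Ear6 3, 6, 110 and 8. Sums for 10 club cell markers were 29185, 29957, 21349 and 24149 CPM, for 10 ciliated cell markers 786, 708, 629 and 711 CPM, and for 8 airway basal cell markers 21.0, 22.8, 36.4 and 31.1 CPM. Sfn, which other epithelial cells also express, made up most of the basal sum, at 284, 236, 540 and 523 counts, while the basal keratins had few counts and did not move together. Krt5 had 11, 26, 1 and 4 counts, Krt15 29, 64, 2 and 2, Krt14 1, 6, 12 and 8, and Krt17 4, 0, 0 and 0. The sums for alveolar type 2 cells were 26148, 26760, 40371 and 23272 CPM, for alveolar type 1 cells 5746, 5262, 4468 and 4070, for endothelium 4139, 4108, 3271 and 4409, for erythroid cells 1772, 1835, 1650 and 1462, and for heart muscle 767, 848, 337 and 758. Much of the alveolar type 2 sum came from Sftpc, at 13657, 13035, 18690 and 9290 CPM, and Lyz2, at 4940, 5514, 9866 and 4784 CPM. The part of these cell types in the results was not tested.

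Immediate-early and heat shock genes, which respond within minutes to acute stimuli, also differed in normal lungs. All 12 of those listed were higher in normal Rab44-KO than normal WT, 4 of them over 2-fold, with a median of 0.52. Of all genes with at least 100 counts, 48.4% were higher in normal Rab44-KO and 0.334% over 2-fold higher. Fos had 1360 and 3226 counts and Hspa1a 194 and 567. In OVA-induced lungs 9 of 12 were higher in Rab44-KO, 3 over 2-fold, and Atf3 was over 2-fold lower (-0.74 on TPM). There 45.1% of all genes with at least 100 counts were higher, and past 2-fold were 3.64% higher and 4.34% lower. The circadian clock genes, added after the values were seen, were near equal in the normal libraries but not in the OVA-induced ones. Dbp had 4881, 4802, 1278 and 74 counts and Bmal1 59, 62, 312 and 891. The part of either program in the ratios was not tested.

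Of 35 other known NRF2 targets, 34 had at least 10 counts in the higher normal library. Of these 33 were higher in Rab44-KO, with a median of 0.28, and 4 were over 2-fold higher and none lower, beside 48.4% of all genes higher (with at least 100 counts) and 2.77% over 2-fold higher (with at least 10). The 4 were Ces1g, a carboxylesterase (172 and 675 counts, 2.04), Nqo1, a quinone reductase (179 and 523 counts, 1.62), Ugt1a6a, a glucuronosyltransferase (152 and 419 counts, 1.54) and Aldh3a1, an aldehyde dehydrogenase (278 and 586 counts, 1.15). In OVA-induced lungs 16 were higher and 17 lower, with a median of -0.02 that was 0.31 on TPM and 0.25 after removal of the length trend. Over 2-fold higher in OVA-induced Rab44-KO were Ces1g (3.08), Gstm3 (1.56, from 9 and 27 counts), Aldh3a1 (1.42), Aox1 (1.38), Ugt1a6a (1.37) and Nqo1 (1.08). Over 2-fold lower were Ftl1, the ferritin light chain (-1.11), and Prdx1, a peroxiredoxin (-1.08), at -0.79 and -0.75 on TPM. Of all genes 8.40% were over 2-fold higher and 7.34% lower, so the share of targets over 2-fold lower, 2 of 33, was near the background. On TPM, where 13.5% of all genes were over 2-fold higher and 4.03% lower and the median of all genes was 0.29, 9 of the 33 were over 2-fold higher and 0 lower. Ces1g, Ugt1a6a and the Gst genes belong to families of similar sequence, so their counts are less certain.

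Nqo1, often read as the standard indicator of NRF2 activity, had 179, 523, 95 and 203 counts. Both OVA-induced libraries were below their normal library, with WT at -0.93 (-1.30 to -0.56) and Rab44-KO at -1.46 (-1.70 to -1.22). That set it apart from Slc7a11 and Hmox1, which were highest in OVA-induced WT, the library where Nqo1 was lowest. Over the 34 other targets with enough counts, OVA-induced over normal had medians of 0.11 in WT, also with Gsta1 (11 and 0 counts) set to a floor of 3 counts, and -0.28 in Rab44-KO. On TPM the WT median turned to -0.07, with 19 of 34 below 0, and the Rab44-KO median was -0.15.

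Nqo1, Aldh3a1 and Ugt1a6a are also targets of the aryl hydrocarbon receptor, a sensor of planar aromatic ligands. All 7 targets of this receptor with enough counts were higher in Rab44-KO in both conditions, 5 of them over 2-fold in each (beside 2.77% and 8.40% of all genes), with medians of 1.15 in normal and 1.37 in OVA-induced lungs. Higher were 48.4% of all genes with at least 100 counts in normal and 45.1% in OVA-induced lungs. Among the 5, Ahrr had 8 and 16 counts in normal and 2 and 10 in OVA-induced lungs. Its interval in normal lungs, -0.24 to 2.51, included 0. Cyp1a1, the receptor's classic target, had 67 and 3418 counts in normal and 30 and 212 in OVA-induced lungs. Of the 4 other NRF2 targets that were over 2-fold higher in normal lungs, 3 were thus on both lists. The part of this receptor in the NRF2 targets' ratios was not tested.

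Regulators of NRF2 differed little in normal lungs. Among 14 the median was -0.05 and none passed 2-fold. Keap1 was at -0.04 (-0.15 to 0.06), Bach1, a repressor that competes for the same elements, at 0.21 (0.12 to 0.31), and Mafg, a small MAF partner, at 0.02 (-0.08 to 0.12). In OVA-induced lungs the median was 0.30, though -0.01 after removal of the length trend, with Keap1 at -0.36 (-0.47 to -0.25), Bach1 at 0.54 (0.45 to 0.64) and Mafg at 0.31 (0.21 to 0.41). Nfe2l3, an NRF2 relative, was the 1 regulator past 2-fold, at 1.42 from 43 and 116 counts, beside 8.40% of all genes over 2-fold higher. On TPM the median was 0.63, beside 0.29 for all genes, and 3 of 14 were over 2-fold higher, beside 13.5% of all genes.

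Antioxidant enzymes outside the NRF2 lists had a median of 0.01 over 24 genes in normal lungs, with none past 2-fold. In OVA-induced lungs the median was -0.48, or -0.16 on TPM, and Prdx4, a peroxiredoxin of the endoplasmic reticulum, was over 2-fold lower at -1.14, or short of 2-fold at -0.81 on TPM. This 1 of 24 stands beside 7.34% of all genes. Of 18 genes of cystine and glutathione handling, the median was 0.08 in normal and -0.27 in OVA-induced lungs, the latter 0.06 on TPM. Ggt1, which splits extracellular glutathione, was over 2-fold higher in normal Rab44-KO at 1.34 (0.81 to 1.89). In OVA-induced Rab44-KO, Mfsd12, a transporter needed for cysteine import into lysosomes, was over 2-fold lower at -1.10 and Cth, which makes cysteine, at -1.04, though at -0.78 and -0.70 on TPM. These 2 of 18 stand beside 7.34% of all genes, and Ggt1 beside 2.77% over 2-fold higher in normal lungs. Slc3a2 was at -0.07 in normal and 0.19 in OVA-induced lungs, so it did not follow Slc7a11.

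Slc7a11 is also a known target of ATF4, the transcription factor of the amino acid response. The list of ATF4 targets holds Atf4 too, and its 23 genes with enough counts had a median of -0.07 in normal lungs, where none passed 2-fold and Atf4 was at -0.14 (-0.22 to -0.05). In OVA-induced lungs the median was -0.60 and 18 of 23 were lower in Rab44-KO, or -0.27 and 13 of 23 on TPM. Of all genes with at least 100 counts, 45.1% were higher in this comparison and the rest lower or equal. Past 2-fold were 5 lower and 1 higher, beside 7.34% and 8.40% of all genes. Over 2-fold lower were Phgdh (-2.15) and Psat1 (-1.49) of serine synthesis, Mthfd2 (-1.66) of mitochondrial folate metabolism, Atf3 (-1.07, or -0.74 on TPM) and Trib3 (-1.06, or -0.72 on TPM), and Atf4 was at -0.65 (-0.73 to -0.56). Ddit4, an inhibitor of mTORC1 signaling, was over 2-fold higher at 1.30. OVA-induced over normal had a median of 0.50 in WT, with 6 of 23 over 2-fold higher and none lower (8.99% and 5.20% of all genes), and of 0.03 in Rab44-KO, with 1 over 2-fold higher and none lower (6.44% and 3.85% of all genes). These medians were 0.33 and 0.15 on TPM. The part of ATF4 in the Slc7a11 ratios was not tested.

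**Figure D4:**
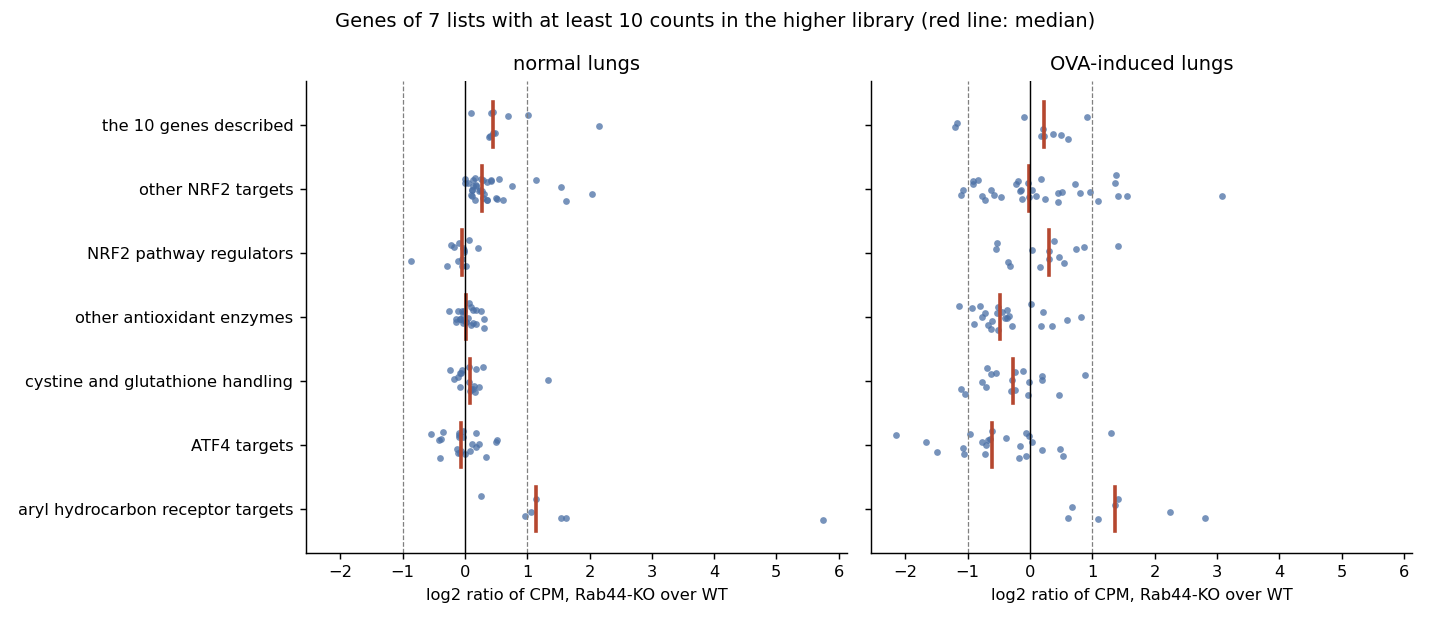
Log2 ratio of CPM (horizontal axis), Rab44-KO over WT, of genes in 7 lists that reached 10 counts in either library, for normal (left) and OVA-induced (right) lungs; points are genes, red lines medians and dashed lines 2-fold, and some genes are on more than 1 list. In normal lungs the medians of the 10 genes (0.45), the other NRF2 targets (0.28) and the aryl hydrocarbon receptor targets (1.15) are the 3 right of 0.1.

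The genes whose profile over the 4 libraries lay nearest to that of Slc7a11, by Euclidean distance of centred log2 CPM among 13899 genes, were Ch25h (0.66), Serpina3f (0.77), Eif2s3y (0.78), Sfrp2 (0.86) and Car13 (0.91). Ch25h, cholesterol 25-hydroxylase, had 62, 165, 425 and 123 counts. Eif2s3y is Y-linked, with 397, 1259, 1730 and 1541 counts. A profile of 4 libraries is a short one, and among the other 9 genes Hmox1 was nearest, at 1.32. With 4 points, such likeness is a description.

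In the OVA-induced comparison the ratio also ran with gene length. With genes cut into 5 equal classes by length, the median log2 ratio went from -0.50 in the shortest class to 0.38 in the longest, against -0.06 and 0.05 in normal lungs. OVA-induced over normal ran with length too, from 0.20 in the shortest class to -0.21 in the longest in WT and from -0.20 to 0.12 in Rab44-KO. Hmox1, Gpx2 and Cbr3 are in the shortest class and Slc7a11 in the longest. Slc7a11 was therefore further below the genes of its length (-1.49 after removal of the trend) and Hmox1 less far (-0.85), and both remained below 0 on every scale tried.

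**Figure D5:**
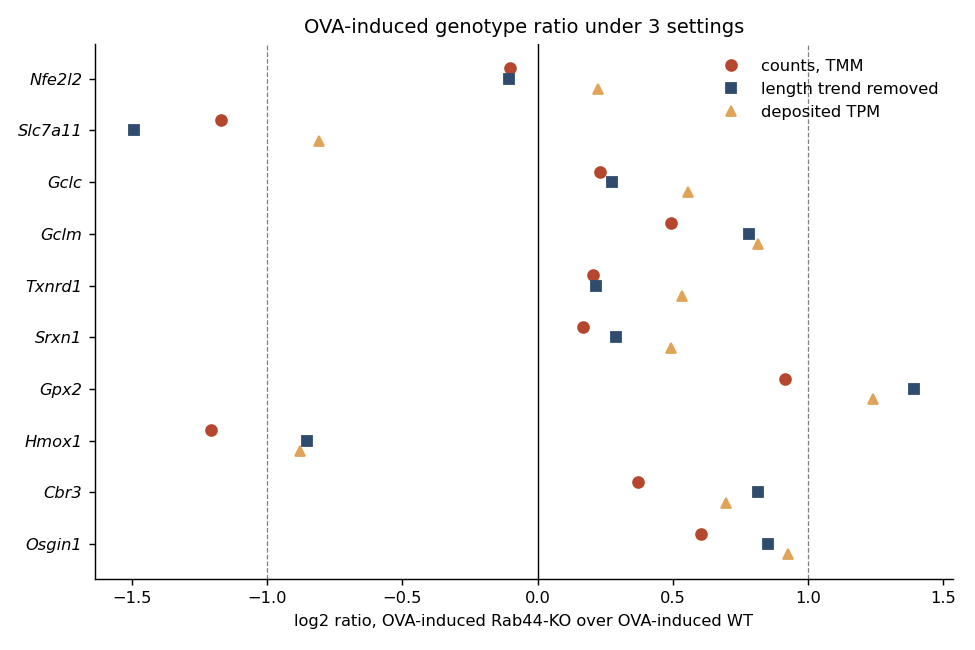
Log2 ratio of OVA-induced Rab44-KO over OVA-induced WT (horizontal axis) from TMM-scaled counts, after removal of the trend with gene length, and from the deposited TPM; dashed lines are 2-fold. Slc7a11 runs from -1.49 to -0.81 and stays left of 0, as does Hmox1, while Nfe2l2 crosses 0 on TPM at 0.22.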

How the data were processed

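Lung RNA of 4 groups was measured as 1 library each. Paired reads of 150 bases were mapped by the authors with HISAT2 (build GRCm38), featureCounts gave the raw counts, and these were deposited. The TPM deposited beside them are the same counts divided by 1 length per gene and sum to 1000000 per library. DESeq2 is named for the authors' comparisons. Tool versions, strand setting and treatment of reads with several matches are not given in the sources used here. The gene starts of the deposited table equal GENCODE M21 starts for 0.860% of 28949 genes, so positions are from GENCODE M21.

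Counts were scaled by TMM over the 4 libraries (edgeR 4.0.16, R 4.3.3; factors 0.973 to 1.02). Log2 ratios of CPM used a prior count of 0.125, adjusted for library size. Intervals of ratios are exact Clopper-Pearson, those of CPM exact Poisson, and those of differences of ratios a normal approximation. All cover counting error only. No p-value was computed. Python 3.11.15, numpy 2.4.6, pandas 2.3.3, scipy 1.17.1 and matplotlib 3.10.9 were used. The steps were tested on simulated counts.

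The genes and lists were chosen with earlier results of these data known. Named were the 10 genes, members of the 6 wider lists over 2-fold with at least 100 counts in either genotype comparison (at most 6 per list and comparison), Keap1, Bach1, Mafg, Slc3a2, Nqo1 and Atf4, of each marker list the members at 0 and at most 3 genes, and the 5 nearest profiles. Gstm3, Gsta1, Ahrr, the 4 basal keratins and the clock and sex-linked genes fall outside this rule and were chosen after their values were seen. Alternatives were DESeq2 1.42.0 size factors, total counts, TMM on the 2 compared libraries, a prior count of 2, TPM with a pseudocount of 0.1, thinning to the smallest library, removal of a running median along gene length over 501 genes, 2 other count minimums and 2 other thresholds.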

Additional observations from a re-analysis of the deposited data

Results flagged for a closer look

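Slc7a11, Hmox1 and Nfe2l2 were flagged because the Rab44-KO library was above WT in normal lungs and below it in OVA-induced lungs. The log2 ratios were 2.15 and -1.17 for Slc7a11, 0.41 and -1.21 for Hmox1, and 0.10 and -0.10 for Nfe2l2. Slc7a11 and Hmox1 were flagged also because OVA-induced over normal pointed in opposite directions in the genotypes, at 2.66 in WT and -0.66 in Rab44-KO for Slc7a11, and at 1.34 and -0.27 for Hmox1. With 1 library per group none of these differences was tested.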

How the results depend on the processing

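No direction of a Slc7a11 or Hmox1 ratio changed in any alternative. DESeq2 size factors, TMM on the 2 compared libraries, a prior count of 2, thinning and both other count minimums moved no value. A ratio or difference had moved when it lay outside its counting interval, and a median when outside the medians of its genes' interval ends. Counts of genes were judged by their fold change from the main count instead. Of 78 values, total counts moved 1, Gclc in OVA-induced lungs, to 0.30, TPM moved 40 and removal of the length trend 18, among them Gclm and Cbr3 in OVA-induced lungs (0.82 and 0.70, then 0.78 and 0.81). On TPM, Rab44-KO over WT in OVA-induced lungs was -0.81 for Slc7a11, the median of the 10 genes was 0.54, 1 was over 2-fold higher and 0 lower, and in the wider lists 17 were over 2-fold higher and 3 lower, against 10 and 10 (all genes 13.5% and 4.03%, against 8.40% and 7.34%). The TPM medians for OVA-induced over normal were -0.20 in WT, where 1 gene was over 2-fold lower, and -0.18 in Rab44-KO. TPM shifted the median of all genes by 0.32, -0.17 and 0.12 in these 3 comparisons. Nfe2l2 in OVA-induced lungs, and Txnrd1 and Srxn1 for OVA-induced over normal in WT (-0.13 and -0.11), changed sign on TPM, as did the genotype differences, OVA-induced minus normal, of Gclc (0.15), Txnrd1 (0.06), Srxn1 (0.01) and Nfe2l2 (0.10). Removal of the length trend put Slc7a11 in OVA-induced lungs at -1.49, with 1 gene over 2-fold higher and 1 lower, and 4 of the wider lists lower (5.73% of all genes). With intervals wholly beyond 2-fold, 1 gene was higher in normal Rab44-KO and 1 lower in OVA-induced Rab44-KO. Beyond a log2 ratio of 2, 1 was higher in normal Rab44-KO, 0 lower in OVA-induced Rab44-KO and 1 higher in OVA-induced WT over normal WT. No paired analysis was possible because each group has 1 library and the labels carry no replicate numbers. For the same reason no library could be left out. Slc7a11, with 43 counts in normal WT, had the widest intervals.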
